A study of Mus musculus with 6 samples.

Results

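Transport of ions, bicarbonate and water across the colonic surface was followed through 10 genes in colonic tissue of 3 mice with conditional knockout of Nedd4l in intestinal epithelial cells (cKO) and 3 littermates (labeled WT). The 10 genes, *Slc26a3*, *Slc9a3*, *Slc9a2*, *Cftr*, *Slc12a2*, *Atp12a*, *Car1*, *Car2*, *Car4* and *Aqp8*, were chosen by name and are all among the 27202 genes listed; all 10 passed the filter on low values that left 16246 genes for testing. The cKO mice were Nedd4l fl/fl Villin Cre, in which Cre under the Villin promoter deletes *Nedd4l* in epithelial cells constitutively, and the WT mice were Nedd4l fl/fl, so that both genotypes carried the floxed allele. Mice were 8 to 10 weeks old and all had taken 2% dextran sulfate sodium (DSS), which damages the lining of the colon, in drinking water for 7 days, so no library came from an uninjured colon and none gives a baseline. Sex was not given for single libraries, and nothing in the labels names batches. Each library is taken to be 1 mouse. Where this is not so, the p-values measure only the spread between these samples.

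The colonic surface takes up sodium chloride mainly by paired exchange. SLC9A3 (NHE3) and, to a smaller part, SLC9A2 (NHE2) bring sodium in against protons, and SLC26A3 (DRA) brings chloride in against bicarbonate. Carbonic anhydrases supply the protons and bicarbonate for this exchange, CAR1 and CAR2 in the cytosol and CAR4 on the apical membrane. ATP12A is the colonic H+/K+-ATPase that recovers potassium, and AQP8 is a water channel of surface colonocytes. Secretion runs the other way: SLC12A2 (NKCC1) loads chloride across the basolateral membrane and CFTR lets it out at the apical membrane. Loss of DRA causes chloride-losing diarrhea in humans and mice.

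The libraries held between 14914367 and 17547270 reads assigned to genes, and the 10 transport genes had from 1320 to 20101 reads in a single library. Values are given as normalized counts, that is, reads per gene divided by a size factor for each library. *Nedd4l* itself, the check of the labels, lay at 1241, 1271 and 1266 normalized counts in the WT libraries and at 476, 942 and 566 in the cKO libraries, in replicate order. The tissue was not sorted and holds cells in which Villin Cre is not active. Among the cKO libraries, replicate 2 thus had the highest *Nedd4l* level, and results are also given without single libraries where these mattered. The markers of general epithelium were high in all 6 libraries (*Epcam* from 20973 to 24439 normalized counts). The surface colonocyte markers were detected too, and 7 of the 10 tested had lower values in cKO. So did 8 of 12 general epithelium markers and 6 of 6 crypt markers, where 49.8% of all genes tested were lower. In bulk tissue, fewer cells of a type and less RNA per cell cannot be told apart.

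Of the 10 transport genes, 9 had lower mean levels in cKO than in WT, but 0 passed the test at an adjusted p of 0.05, and 0% of all tested genes did in either direction, by limma or by edgeR. The median log2 fold change (cKO minus WT, on the log2(normalized count + 1) scale) of the 10 genes was −0.56, against 0.0013 over all genes tested, of which 49.8% were lower. *Car2* was the only member with an unadjusted limma p under 0.05 on the lower side, where 7.08% of all genes lay, and no member had such a p on the higher side, where 6.91% of all genes lay. *Car2* was also the only member whose cKO libraries all lay below every WT library, which was true of 10.9% of all genes, and no member lay wholly above, as 10.5% of all genes did. With 1 of 10 members, both counts are near the background. In the plot of normalized counts by library, for 7 members cKO replicate 1 was lowest, and cKO replicate 2 lay at −0.28 to 0.27 against the WT mean on the log2 scale.

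**Figure D1:**
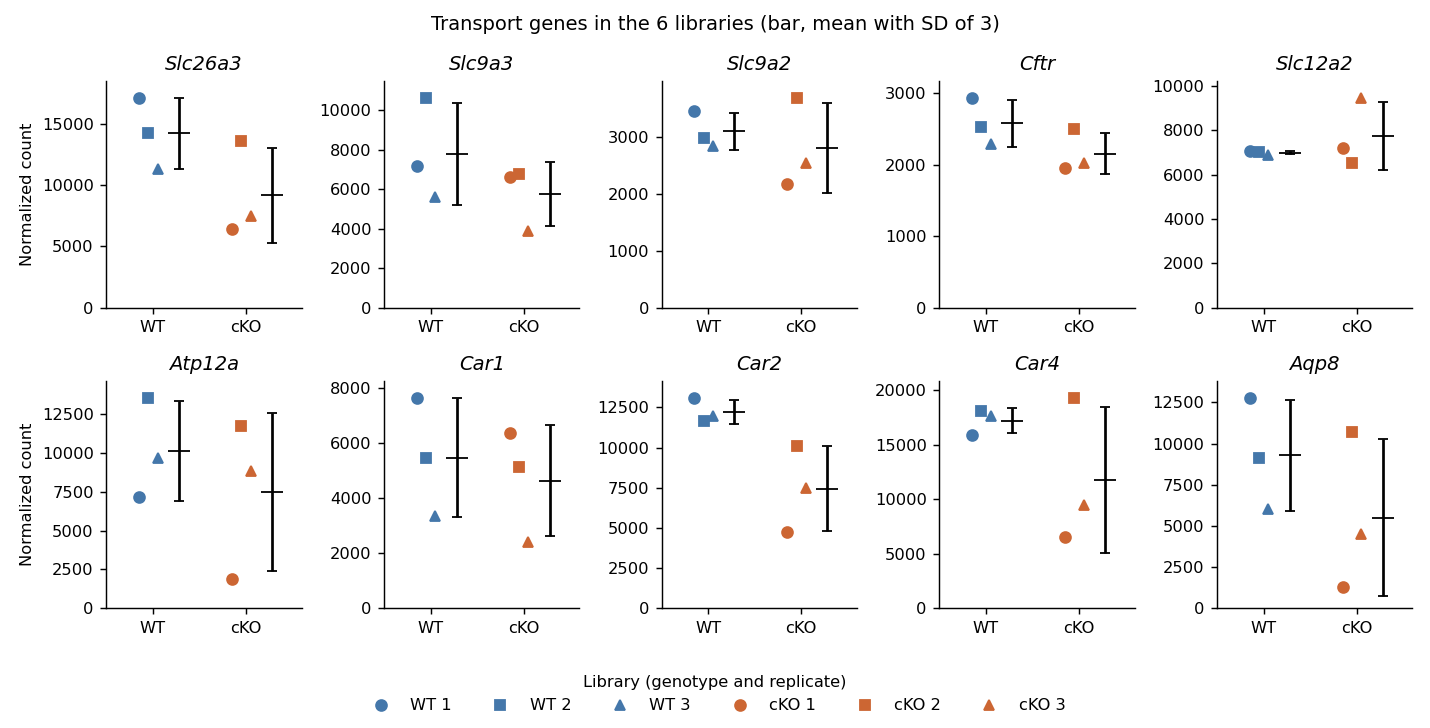
Normalized counts of the 10 transport genes (y axis, from 0) in 3 WT (blue) and 3 cKO (orange) libraries, with marker shapes for replicates and a bar for the mean with SD. For *Car2* all cKO points lie below all WT points, while for *Aqp8*, *Atp12a* and *Car4* the cKO points span from far below WT to WT level.

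Of the members that were lowest in cKO replicates 1 and 3, the sequence around the start of transcription was at hand for *Slc26a3*, *Car4*, *Aqp8* and *Cftr*. The first 3, which held motif matches, are shown so that the regions can be compared, and *Cftr*, which held none, is not printed. RefSeq promoter windows on GRCm38.p6, of 250 bases before and 50 from the start, were matched for 5 of the 10 genes (*Cftr*, *Aqp8*, *Car4*, *Slc26a3* and *Slc9a3*). The windows printed are *Slc26a3* (chr12:31437969-31438268, plus strand), *Car4* (chr11:84957504-84957803, plus strand) and *Aqp8* (chr7:123462044-123462343, plus strand), read 5′ to 3′ with the annotated start at base 251. The RefSeq start of *Slc26a3* lies inside the gene span that the deposited table lists. The listed span of *Car4* begins at 84957786, inside its window and after the RefSeq start. Capitals mark matches, on either strand, to motifs of factors known from colonic epithelium, HNF1 (GTTAATNAT) and CDX (GCNATAAA), and to the TATA box (TATAAA), which is not specific to a tissue.
Slc26a3: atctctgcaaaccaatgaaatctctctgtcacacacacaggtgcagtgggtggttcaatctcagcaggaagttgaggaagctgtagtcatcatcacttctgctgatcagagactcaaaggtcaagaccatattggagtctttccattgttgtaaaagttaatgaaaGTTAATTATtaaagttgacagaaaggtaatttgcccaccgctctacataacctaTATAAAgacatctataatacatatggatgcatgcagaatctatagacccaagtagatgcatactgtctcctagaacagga
Car4: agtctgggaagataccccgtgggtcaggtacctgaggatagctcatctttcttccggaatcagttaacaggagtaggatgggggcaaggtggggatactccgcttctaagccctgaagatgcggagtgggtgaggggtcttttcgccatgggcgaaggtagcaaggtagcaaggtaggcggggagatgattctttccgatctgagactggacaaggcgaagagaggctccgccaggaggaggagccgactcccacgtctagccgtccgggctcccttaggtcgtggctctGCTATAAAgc
Aqp8: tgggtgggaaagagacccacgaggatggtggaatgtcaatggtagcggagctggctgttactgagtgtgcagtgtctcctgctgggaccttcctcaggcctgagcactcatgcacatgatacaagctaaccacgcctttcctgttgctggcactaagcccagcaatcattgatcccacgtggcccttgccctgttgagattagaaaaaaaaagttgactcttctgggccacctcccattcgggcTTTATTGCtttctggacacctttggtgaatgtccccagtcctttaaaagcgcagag
In *Slc26a3* an HNF1 match began at base 167 and a TATA box match at base 221. In *Car4* a CDX match at base 291 overlapped a TATA box match at base 293, both after the start at base 251. In *Aqp8* a CDX match on the other strand began at base 245. The HNF1 letters occurred in 0.801% of all 32851 promoter windows of 300 bases, the CDX letters in 2.66% and the TATA box letters in 13.6%. Searches for HNF4 (CAAAGTNCA, in 1.41% of all windows) and the letters AGATAA read by GATA factors (in 11.2%) gave no match in the 5 windows, and those of *Cftr* and *Slc9a3* held none of the 5 motifs. These are matches of letters only and were not tested against any measurement.

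Among the apical exchangers, *Slc26a3* (ENSMUSG00000001225, DRA) lay at 17122, 14214 and 11356 normalized counts in WT and at 6432, 13620 and 7456 in cKO. In total 2 of the 3 cKO libraries were below every WT library, and replicate 2 was inside the WT range. The mean was 14231 ± 2883 (SD, n = 3) in WT and 9169 ± 3889 (SD, n = 3) in cKO, which is 64.4% of WT. The log2 fold change was −0.69 (SE 0.31, 95% interval −1.46 to 0.07), with an adjusted p of 0.384 by limma and 0.414 by edgeR. Without cKO replicate 2 it was −1.02, at an adjusted limma p of 0.0608, and without cKO replicate 1 it was −0.48, at an adjusted limma p of 0.637.

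*Slc9a3* (NHE3, ENSMUSG00000036123; chr13:74121457-74169442), the main sodium–proton exchanger of the surface, lay at 7145, 10614 and 5577 in WT and 6628, 6752 and 3880 in cKO. Here the lowest library was cKO replicate 3 rather than replicate 1, and the other two cKO libraries were inside the WT range. The log2 fold change was −0.43 (SE 0.31, 95% interval −1.20 to 0.34; limma adjusted p = 0.560), and it was −0.17 without cKO replicate 3 and −0.18 without WT replicate 2. The second exchanger, *Slc9a2* (NHE2, ENSMUSG00000026062; chr1:40680574-40769273), lay at 3468, 2985 and 2851 in WT and 2184, 3694 and 2553 in cKO, so that cKO replicate 2 exceeded every WT library while replicates 1 and 3 were below all of them. Its log2 fold change was −0.17 (SE 0.19, 95% interval −0.63 to 0.28; limma adjusted p = 0.700), and −0.39 without cKO replicate 2. Leaving out cKO replicate 1 instead brought it to −0.01 by limma and 0.01 by edgeR.

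The carbonic anhydrases differed among themselves. *Car2* (ENSMUSG00000027562; chr3:14886273-14900770), the fast cytosolic enzyme, lay at 13074, 11626 and 11955 normalized counts in WT and at 4761, 10079 and 7480 in cKO. All 3 cKO libraries were below all 3 WT libraries, and the WT libraries varied little, with a coefficient of variation of 6.21% against 35.7% in cKO. The mean was 12219 ± 759 (SD, n = 3) in WT and 7440 ± 2659 (SD, n = 3) in cKO, or 60.9% of WT. The log2 fold change was −0.78 (SE 0.26, 95% interval −1.41 to −0.15), with an unadjusted limma p of 0.0233, an adjusted limma p of 0.310 and an adjusted edgeR p of 0.316. The exact two-sided permutation test gave p = 0.1, which is the smallest it can give with 3 against 3. Over the alternatives, the adjusted p of *Car2* ranged from 0.0542 to 0.535, and the fold change was negative in each of them.

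*Car4* (ENSMUSG00000000805), the membrane-anchored enzyme, lay at 15940, 18084 and 17657 in WT and at 6541, 19296 and 9491 in cKO. The WT values were close together, and the cKO values lay on both sides of them: replicates 1 and 3 below every WT library and replicate 2 above every WT library. Means were 17227 ± 1135 (SD, n = 3) in WT and 11776 ± 6678 (SD, n = 3) in cKO, and the log2 fold change was −0.70 (SE 0.39, 95% interval −1.66 to 0.27; limma adjusted p = 0.460). Without cKO replicate 2 it was −1.13 with an adjusted limma p of 0.0435, and −1.10 with an adjusted edgeR p of 0.0494. Without cKO replicate 1 instead it was −0.35 with an adjusted limma p of 0.729, and −0.26 with an adjusted edgeR p of 0.794. With replicate 2 left out *Car4* was the only member below the threshold, and 0.32% of all genes were called lower by limma and 0.185% by edgeR. The adjusted p over all alternatives ran from 0.0435 to 0.794.

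*Car1* (ENSMUSG00000027556; chr3:14766216-14808368, minus strand), the other cytosolic enzyme and a neighbor of *Car2* on chromosome 3, did not follow *Car2* and *Car4*. It lay at 7647, 5463 and 3344 in WT and at 6379, 5130 and 2408 in cKO, so that cKO replicate 1, lowest for the other 2 enzymes, was here the second highest of the 6 libraries. The genotypes overlapped and the spread within each was wide (coefficient of variation 39.2% in WT and 43.8% in cKO). The log2 fold change was −0.28 (SE 0.46, 95% interval −1.42 to 0.87; limma adjusted p = 0.811). It was 0.14 without cKO replicate 3, 0.0044 without WT replicate 1 and −0.56 without cKO replicate 1.

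The widest spread was in the water channel and the potassium pump. *Aqp8* (ENSMUSG00000030762) lay at 12762, 9113 and 6011 in WT and at 1265, 10676 and 4531 in cKO. The cKO values thus ran from far below the WT range to inside it, and their coefficient of variation was 87.0%, against 36.4% in WT. Its log2 fold change of −1.17 had an SE of 0.79 and a 95% interval from −3.13 to 0.79 (limma adjusted p = 0.533), and edgeR gave −0.76 (adjusted p = 0.683). By limma it was −0.35 without cKO replicate 1 and −1.89 without cKO replicate 2 (adjusted p = 0.852 and 0.256). *Atp12a* (ENSMUSG00000022229; chr14:56365068-56388550) lay at 7180, 13549 and 9683 in WT and at 1866, 11780 and 8824 in cKO. Only replicate 1 was outside the WT range, and without it the log2 fold change went from −0.76 (SE 0.73; limma adjusted p = 0.654) to 0.06. The antisense gene *Gm10873*, which overlaps *Atp12a*, lay at 69.1, 96.3 and 50.9 in WT and at 6.71, 103 and 47.4 in cKO. Whether the counting used strand is not given in the sources used here, so reads of the 2 genes may not be separated.

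The 2 secretory transporters had small differences of opposite sign. *Cftr* (ENSMUSG00000041301; chr6:18170687-18322768), the apical chloride channel, lay at 2934, 2525 and 2285 in WT and 1953, 2492 and 2024 in cKO. Replicates 1 and 3 of cKO were below every WT library, but by less than for *Slc26a3*: the log2 fold change was −0.26 (SE 0.13, 95% interval −0.55 to 0.03; limma adjusted p = 0.396). *Slc12a2* (NKCC1, ENSMUSG00000024597, on chromosome 18), which brings chloride into the cell for secretion, was the only member with a higher mean in cKO. Its WT libraries were almost equal, at 7063, 7023 and 6913, and its cKO libraries lay at 7188, 6554 and 9472, 2 of them above and 1 below every WT library, replicate 1 only narrowly. The coefficient of variation was 1.11% in WT and 19.8% in cKO. The log2 fold change was 0.13 (SE 0.13, 95% interval −0.18 to 0.43; limma adjusted p = 0.676) and rested on cKO replicate 3, without which it was −0.03.

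**Figure D2:**
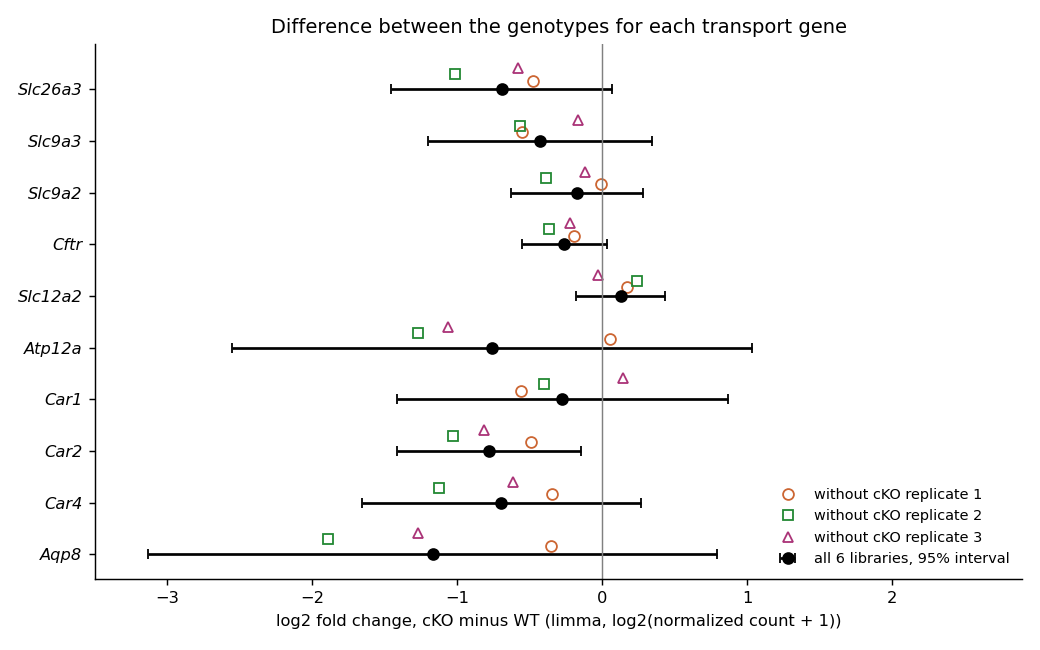
Log2 fold change, cKO minus WT, of each transport gene (x axis) with its 95% interval from limma over 6 libraries (black), and without cKO replicate 1, 2 or 3 (open symbols). The interval of *Car2* alone stays below 0, and 7 of the 10 genes are lowest without replicate 2 and nearest 0, or above it, without replicate 1.

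Across the cKO libraries most members shared an order. In 7 of 10 (*Slc26a3*, *Slc9a2*, *Cftr*, *Atp12a*, *Car2*, *Car4* and *Aqp8*) replicate 1 was lowest of all 6 libraries, replicate 3 was next among the cKO and replicate 2 highest. The same order held for 15.4% of all genes tested, and the libraries themselves stood apart: over all tested genes the mean correlation of cKO replicate 1 was 0.963 with the other cKO and 0.948 with WT libraries, and that of cKO replicate 2 was 0.966 and 0.977. *Slc9a3* and *Car1* were lowest in replicate 3, and *Slc12a2* in replicate 2. In cKO replicate 1 the log2 level against the WT mean was −2.81 for *Aqp8*, −2.39 for *Atp12a*, −1.39 for *Car4*, −1.36 for *Car2* and −1.13 for *Slc26a3*, but 0.30 for *Car1* and 0.04 for *Slc12a2*. In cKO replicate 3 the corresponding levels were −0.97, −0.15, −0.86, −0.71 and −0.91, with −1.11 for *Car1* and 0.44 for *Slc12a2*. *Atp12a* was therefore low in replicate 1 and not in replicate 3, and *Car1* the reverse.

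Leaving out 1 library at a time showed how far the overlap of the genotypes rests on single mice. Without cKO replicate 2, 6 members lay wholly below WT (*Slc26a3*, *Slc9a2*, *Cftr*, *Car2*, *Car4* and *Aqp8*), against 19.1% of all genes, and 1 (*Slc12a2*) lay wholly above, against 18.5%. Without WT replicate 3 there were 4 (*Slc26a3*, *Slc9a3*, *Cftr* and *Car2*), against 15.7% of all genes. *Car2* alone lay wholly below in each of the other settings, where the share of all genes was 15.6% without cKO replicate 1, 14.4% without cKO replicate 3, 16.2% without WT replicate 1 and 15.4% without WT replicate 2.

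Markers of other cells differed between the cKO libraries too. Log2 fold changes were positive for 7 and negative for 1 of the 8 leukocyte markers and positive for all 6 fibroblast markers, and 0 of them passed the adjusted threshold. The neutrophil genes *S100a8* and *S100a9* lay at 2708 and 2680 normalized counts in cKO replicate 1, 417 and 348 in replicate 3 and 31.0 and 27.6 in replicate 2, against 12.8 to 38.7 and 10.8 to 15.8 in WT. The summed level of the leukocyte list was 10157, 3641 and 4157 in cKO and from 2882 to 3820 in WT. Without *S100a8* and *S100a9* the other 6 leukocyte markers summed to 4769, 3582 and 3393 in cKO and from 2832 to 3776 in WT, so that only cKO replicate 1 lay above the WT range. The summed level of the 6 fibroblast markers was 42446, 20966 and 22452 in cKO and from 10564 to 18057 in WT. The 12 general epithelium markers had a mean log2 level against WT of −0.13, 0.05 and −0.05 in cKO replicates 1, 2 and 3. The 10 tested surface colonocyte markers had −0.26, −0.04 and −0.28, and the 7 goblet cell markers −0.74, 0.83 and 0.12. For the 6 crypt markers the levels were −0.74, −0.22 and −0.09. Among the surface colonocyte markers, *Krt20* lay at 14216 to 18815 in the 6 libraries, *Selenbp1* at 3531, 9736 and 6213 in cKO and 8655 to 11171 in WT, and *Muc3* had a log2 fold change of −0.59 (limma adjusted p = 0.313). The 3 surface markers with positive log2 fold changes were *Slc51b* (0.33), *Lypd8* (0.13) and *Krt20* (0.10), each with overlap between the genotypes. The part of these cells in the members' levels was not tested.

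Colon segment is a further measure on which the libraries differed, and several transport genes are known to differ along the colon. *Hoxd13*, a gene of the distal colon, lay at 213, 195 and 78.9 in WT and at 17.3, 334 and 651 in cKO, so that cKO replicate 1 was lowest and replicate 3 highest. The same held for *Hoxd10* and *Hoxd11*, at low levels. *Hoxa13* differed, at 1067, 896 and 926 in WT and 810, 869 and 762 in cKO, with cKO replicate 3 lowest. *Hoxb13* lay at 3820, 3694 and 4513 in WT and 2279, 4441 and 3937 in cKO, with cKO replicate 1 lowest. The summed level of the 6 distal Hox genes was 3116, 5676 and 5409 in cKO and from 4823 to 5537 in WT, with *Hoxd12* at 0 in some libraries. Red cell precursors also make *Car1* and *Car2*. Of their markers, the anion exchanger gene *Slc4a1* lay at 0 to 2.96 normalized counts in the 6 libraries and the globin gene *Hbb-bs* at 49.5 to 148. The summed level of the 7 erythroid markers was 155, 310 and 118 in cKO and 328, 97.2 and 220 in WT, so that the genotypes overlapped. The part of colon segment and of red cell precursors in the results was not tested.

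**Figure D3:**
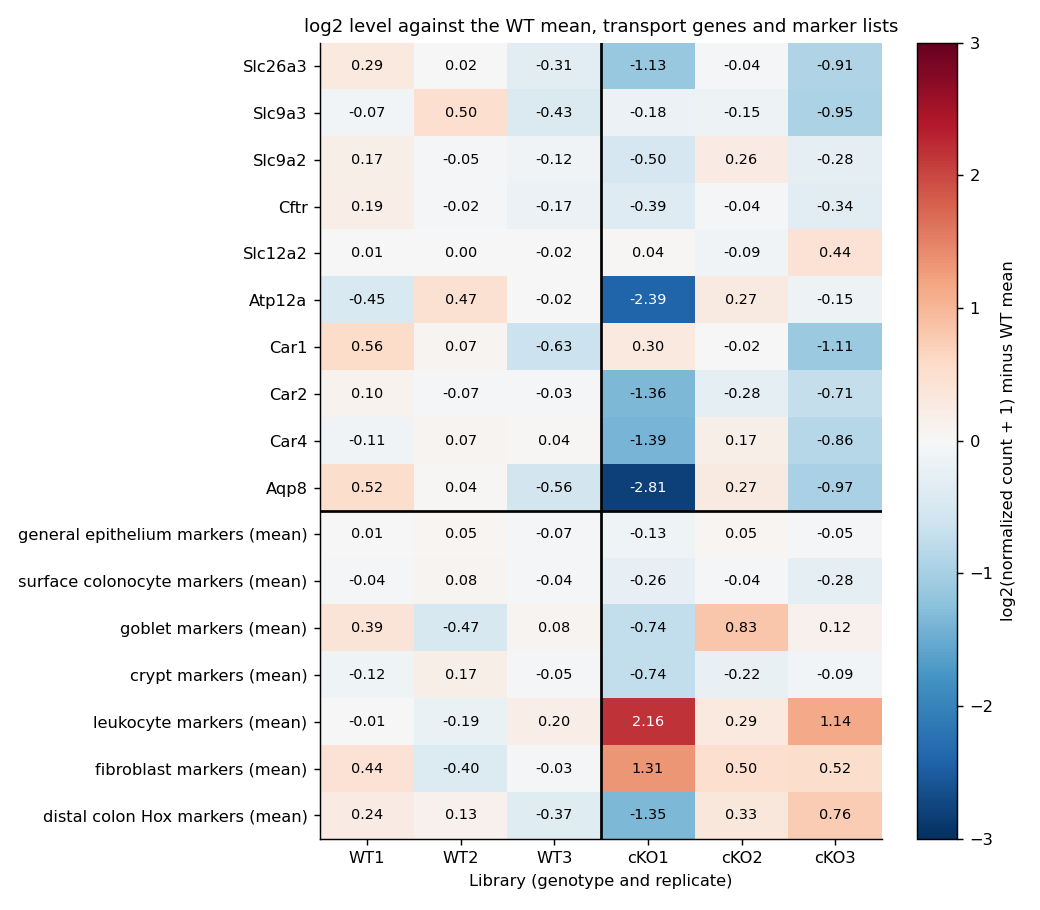
Log2(normalized count + 1) minus the WT mean (color and number) for the 10 transport genes and the mean of 7 marker lists (rows) in 6 libraries (columns). The cKO replicate 1 column shows the lowest values for *Aqp8* (−2.81) and *Atp12a* (−2.39) and the highest for leukocyte markers (2.16, or 0.51 without *S100a8* and *S100a9*), while general epithelium markers stay between −0.13 and 0.05.

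Levels of different genes can be compared only per length, as normalized counts per kilobase of the gene length in the deposited table. On that scale *Car4* was highest in WT, at 8762 ± 577 (SD, n = 3), followed by *Aqp8* (5880 ± 2137), *Car2* (5045 ± 313), *Car1* (4395 ± 1724), *Atp12a* (2524 ± 799), *Slc26a3* (2234 ± 453), *Slc9a3* (1413 ± 468), *Slc12a2* (1074 ± 11.9), *Slc9a2* (444 ± 46.5) and *Cftr* (332 ± 42.3). The WT ranges of neighbors in this order overlapped, except between *Car4* and *Aqp8*, *Slc12a2* and *Slc9a2*, and *Slc9a2* and *Cftr*. In cKO the order was the same but for *Car1*, which stood second, ahead of *Aqp8* and *Car2*, and for *Slc12a2* (1187 ± 235), which stood ahead of *Slc9a3* (1045 ± 295). In both cases the cKO ranges of these neighbors overlapped.

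**Figure D4:**
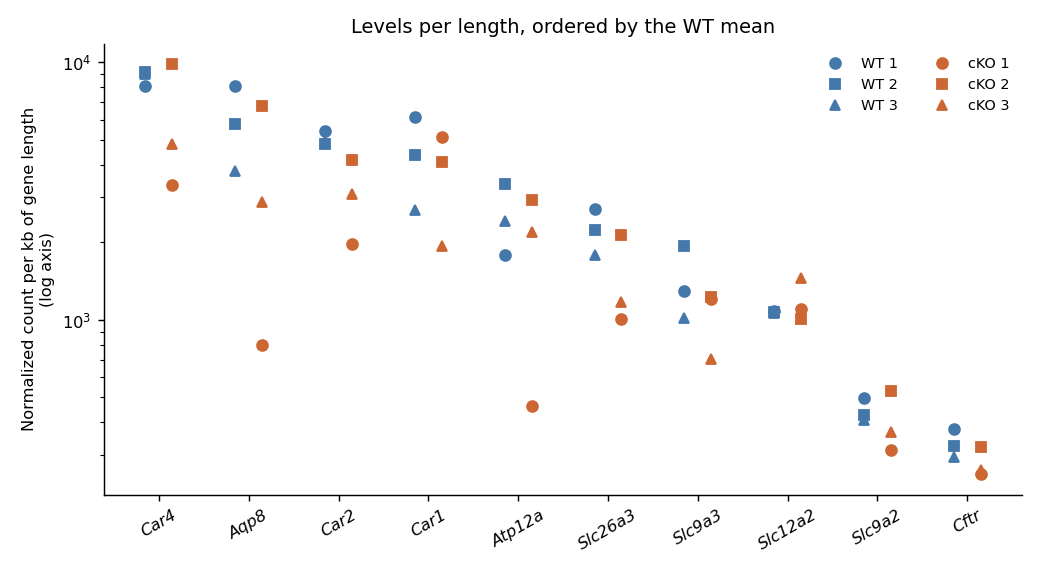
Normalized count per kilobase of gene length (log axis) for the 10 transport genes ordered by WT mean, in 3 WT (blue) and 3 cKO (orange) libraries. *Car4* is highest in WT (8762) and *Cftr* lowest (332), and *Aqp8* and *Atp12a* have a single cKO point far below the others.

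For each member the protein-coding gene with the nearest profile over the 6 libraries was sought among 11879 genes, by the root mean square difference between log2 profiles centered on their own means. With so many genes and only 6 libraries, a near profile can be found for most genes. The differences were not set against a background, and shared regulation was not tested. The nearest was *Slc17a9*, a vesicular nucleotide transporter, for *Cftr* (difference 0.03) and *Reep6* for *Car2* (0.06). *Gstm4* was nearest to *Slc9a2* (0.06), *Tnfaip8l1* to *Slc12a2* (0.07), *Ppp1r9a* to *Car4* (0.10), *Cfap74* to *Slc26a3* (0.10) and *Dimt1* to *Slc9a3* (0.12). For *Car1* it was *Nkain1* (0.22), for *Atp12a* *Mycbpap* (0.23) and for *Aqp8* *Eno3* (0.26). The difference grows with the spread of a member's own profile, and as a share of that spread it was smallest for *Car2* (0.129) and largest for *Slc12a2* (0.398) and *Car1* (0.394), with 0.245 for *Atp12a* and 0.233 for *Aqp8*. Among the members themselves, *Cftr* and *Slc9a2* were nearest to each other (0.13), as were *Slc26a3* and *Car2* (0.21), and *Car4* was nearest to *Car2* (0.22). The nearest member to *Aqp8* was *Atp12a* (0.58). These differences are not scaled to the spread of each profile, which was 1.11 (SD, log2) for *Aqp8* and 0.20 for *Cftr*, so they do not rank the pairs.

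A wider list of 63 epithelial transport genes was then examined. Of these, 61 were listed and 51 passed the filter. None passed the adjusted threshold by limma or edgeR, while 5 (9.80%) had an unadjusted limma p under 0.05 with lower and 4 (7.84%) with higher values in cKO, near the background of 7.08% and 6.91%. Their median log2 fold change was −0.05, with 30 lower and 21 higher, against −0.56 for the 10 members. Of the 51 tested, 6 lay wholly below WT and 5 wholly above, near the shares of all genes, 10.9% and 10.5%.

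In the epithelial sodium channel, an apical route for sodium in the distal colon, *Scnn1g* lay at 26.7, 14.4 and 22.0 in WT and at 98.7, 80.7 and 80.5 in cKO. *Scnn1b* lay at 47.4, 17.1 and 39.9 in WT and at 108, 73.0 and 95.9 in cKO. For both of these subunits every cKO library, replicate 2 included, was above every WT library, with log2 fold changes of 2.03 (limma adjusted p = 0.116) and 1.48 (limma adjusted p = 0.227). The other subunit gene, *Scnn1a*, lay at 2609, 2553 and 2817 in WT and at 1607, 2867 and 2197 in cKO, with overlap and a log2 fold change of −0.30 (limma adjusted p = 0.517). *Scnn1g* and *Scnn1b* passed with DESeq2 (adjusted p = 1.4e-05 and 0.0302) and with array weights (0.00975 and 0.0419). These settings called 259 and 262 of the 16246 genes higher, against 0 in the main test. The array weight of cKO replicate 3 was 4.39, against 0.414 and 0.562 for cKO replicates 1 and 2.

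Among the chloride and potassium channels, 6 of 10 were lower and 4 higher. *Kcnn4* and *Kcnq1*, potassium channels that sustain the driving force for chloride secretion, lay below WT in all 3 cKO libraries, at log2 fold changes of −0.40 each (limma adjusted p = 0.270 and 0.275). The same held for *Clcn2*, at −0.17 (limma adjusted p = 0.417). Chloride–proton exchanger *Clcn3* was above WT in all 3 (0.22, limma adjusted p = 0.306). Of the 9 tested apical exchangers and adaptors, 6 were lower. *Slc9a8* (NHE8) had −0.23 (limma adjusted p = 0.343) with no overlap, and *Slc4a4*, the basolateral sodium bicarbonate cotransporter, had −0.53 (limma adjusted p = 0.392) with overlap.

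Other carbonic anhydrases were lower in 4 and higher in 5 of 9 tested. Mitochondrial *Car5b* lay at 22.7, 16.2 and 13.0 in WT and 78.6, 37.6 and 29.9 in cKO (log2 fold change 1.35, limma adjusted p = 0.278), and *Car8*, which lacks enzyme activity, had −0.30 (limma adjusted p = 0.337). Among 3 tested aquaporins, *Aqp4*, a basolateral water channel, lay at 20525, 22551 and 20868 in WT and at 13063, 19061 and 17714 in cKO. Unlike *Aqp8* it did not overlap between the genotypes, at a log2 fold change of −0.38 (SE 0.14, limma adjusted p = 0.316), while *Aqp1* had −0.05.

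The sodium–potassium pump, which drives uptake from the basolateral side, differed little: 4 of 5 genes were lower, with *Atp1b3* at −0.11 and its regulator *Fxyd3* at 0.17 (limma adjusted p = 0.599 and 0.538). Of 4 short-chain fatty acid transporters 3 were lower. *Slc16a3* (MCT4) lay at 348, 291 and 154 in WT and 1186, 280 and 567 in cKO, high in replicates 1 and 3 only (log2 fold change 1.19, limma adjusted p = 0.418), and *Slc16a1* (MCT1) had −0.22. In guanylin and cyclic nucleotide signaling, which switches the colonocyte from uptake to secretion, 3 of 8 genes were lower, with *Guca2a* (guanylin) at −0.64 and *Prkg2* at −1.12 (limma adjusted p = 0.448 and 0.409), both with overlap between the genotypes.

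**Figure D5:**
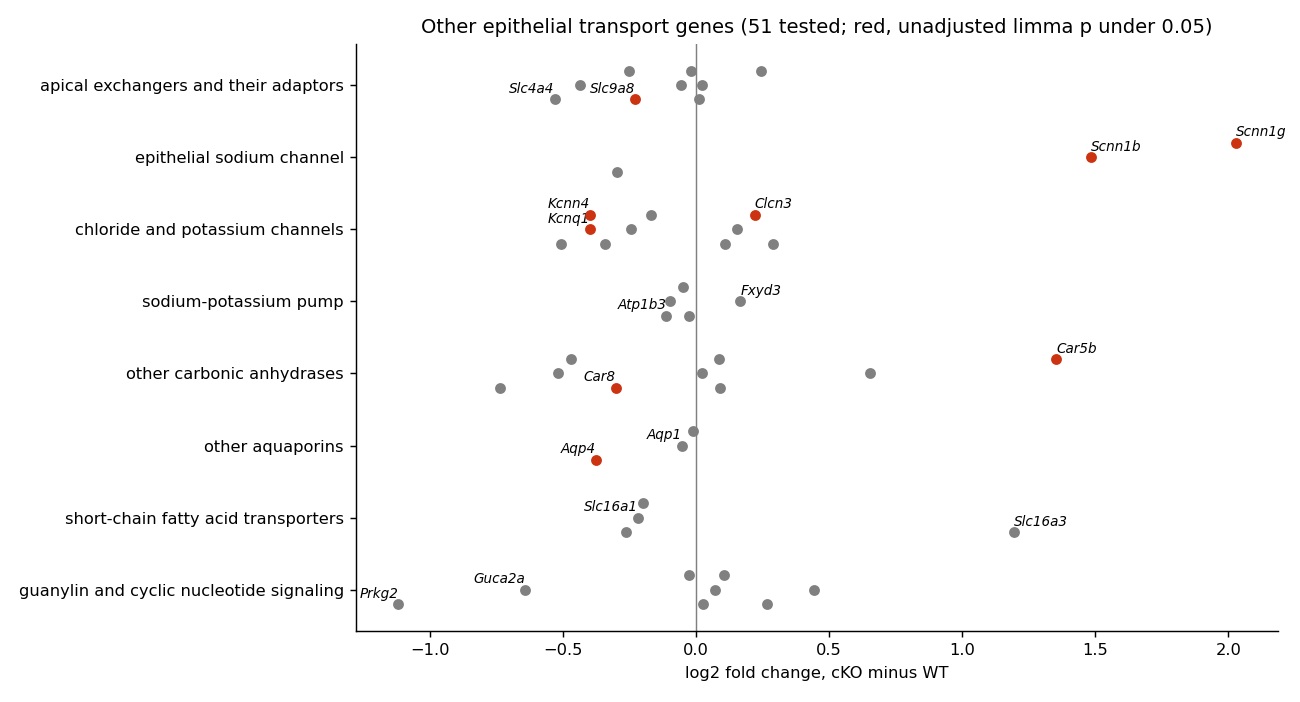
Log2 fold change, cKO minus WT (x axis), of the 51 tested genes of the wider transport list, by functional group (rows). Red points, with an unadjusted limma p under 0.05, lie on both sides, and *Scnn1g* (2.03) and *Scnn1b* (1.48) are the farthest from 0.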

How the data were processed

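RNA sequencing of colonic tissue gave 1 table with 6 library columns, all of which were used. The deposited signal is a normalized count: the authors divided the reads of each gene by a size factor of its library. The submitters' processing notes name HISAT2 2.0.5, featureCounts 1.5.0-p3 and the human build hg18, but the coordinates in the table are those of mouse GRCm38 (97.0% of genes, and all 10 members, have identical coordinates in release M21 of the GENCODE annotation). The table also holds the authors' genotype means, fold changes and p-values, which were not used.

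All values were whole multiples (within 0.001) of the smallest value of their library, so whole reads were recovered for 100% of values. The main test was limma 3.58.1 under R 4.3.3 (trend and robust settings) on log2(normalized count + 1), for the 16246 of 27202 genes averaging 10 or more, with Benjamini-Hochberg adjustment over these genes and a threshold of 0.05. A pseudocount understates changes of low genes. The quasi-likelihood test of edgeR 4.0.16 and the Wald test of DESeq2 1.42.0 were run on recovered reads, and other scalings, pseudocounts, filters, array weights and leaving out each library were tried. A single gene was compared by the exact two-sided permutation test, which cannot give p below 0.1. The scripts were tested on simulated counts. Figures were drawn with matplotlib under Python. Intervals are at the 95% level.

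The members and lists were chosen with earlier results of these data known. Named were all members, in each group of the wider list the 2 tested genes with the smallest limma p, and the gene of nearest profile for each member with a mean of at least 50. *Clcn2*, *Clcn3*, *Scnn1a* and the single marker genes were named after their values were seen. Fits of edgeR without single libraries and with a replicate block were added after the data had been seen.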

Additional observations from a re-analysis of the deposited data

How the results depend on the processing

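Of the alternatives, none but those named here changed a call or a direction of a member. No gene passed in the main test (1151 lower and 1122 higher at an unadjusted limma p under 0.05) or by edgeR, while 23 lower and 7 higher genes passed with no filter on low values, 173 and 259 with DESeq2 and 369 and 262 with array weights. Leaving out single libraries with limma gave from 0 to 52 genes lower and from 0 to 70 higher, and from 0 to 1 members lower (*Car4*, without cKO replicate 2). With edgeR, 22 lower and 5 higher genes passed without cKO replicate 1, and 30 and 61, *Car4* again the 1 member, without cKO replicate 2. Of the wider list, 2 genes were lower (*Kcnn4* and *Kcnq1*) and 3 higher with array weights, 2 higher with DESeq2 and 1 higher with no filter (*Scnn1g*). With single libraries left out, limma log2 fold changes reached the other side of 0 for *Slc12a2* (−0.028 to 0.237), *Atp12a* (−1.27 to 0.057), *Car1* (−0.59 to 0.14) and *Aqp1* (−0.31 to 0.205). They did so with edgeR without cKO replicate 1 for *Slc9a2* (0.0086) and *Atp12a* (0.022), without cKO replicate 3 for *Slc12a2* (−0.0277), *Car1* (0.069) and *Aqp1* (0.218), without WT replicate 1 for *Car1* (0.067) and *Aqp1* (0.125), and without cKO replicate 2 for *Aqp1* (0.034). The cause was not tested.

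Same-numbered libraries did not deviate together over all tested genes (correlations −0.03, −0.09 and −0.06). With 3 libraries per genotype this cannot show whether the numbers pair the mice. With a replicate block, 0 genes, 0 members and 0 wider genes passed in either direction, by limma or edgeR. At an unadjusted limma p under 0.05, 5 members were lower with the block, against 1 in the main test. Over all genes, 1052 were lower with it, against 1151 in the main test. By edgeR, 3 members were lower at an unadjusted p under 0.05 with the block, against 1 without it. Over all genes, edgeR had 1000 lower at that threshold with the block, against 1111 without it.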

Other observations

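Ratios between members within a library do not depend on the size factor, and the pairs given here were chosen after their values were seen, so they are a description with no test. The ratio of *Slc12a2* to *Slc26a3* normalized counts, the chloride loader of secretion against the chloride exchanger of uptake, was 0.413, 0.494 and 0.609 in WT and 1.12, 0.481 and 1.27 in cKO. The ratio of *Cftr* to *Slc26a3* was 0.171, 0.178 and 0.201 in WT and 0.304, 0.183 and 0.271 in cKO. In both, cKO replicates 1 and 3 were above every WT library and replicate 2 was within the WT range.

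Between the cytosolic carbonic anhydrases the libraries lay differently. The ratio of *Car1* to *Car2* was 0.585, 0.470 and 0.280 in WT and 1.34, 0.509 and 0.322 in cKO, so that replicate 1 alone stood outside the WT range. The ratio of *Car4* to *Car2* was 1.22, 1.56 and 1.48 in WT and 1.37, 1.91 and 1.27 in cKO, with replicate 2 above the WT range, and the ratio of *Slc9a3* to *Slc26a3* was 1.03 in cKO replicate 1 and from 0.417 to 0.747 in the other libraries.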
